A study of Mus musculus with 17 samples.

Results

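The genes described here are 35 mouse genes of the interferon response, chosen as a list of symbols and found in the count table through their Ensembl identifiers. All 35 were among the 55487 gene identifiers of the table, and 31 of them were among the 12131 genes with enough counts to be tested. RNA was counted in whole kidneys of 17 male mice aged 16 weeks, with 1 library per animal. Both groups were on the BKS background. The 9 db/db animals carried the mutant db allele on both copies of the leptin receptor gene Lepr, and animals of this genotype become obese and diabetic. The 8 db/m animals carried 1 mutant Lepr copy and are lean. The comparison asks how kidney gene expression differs between diabetic and lean mice, and was made for db/db against db/m, also with db/db replicate 9 left out.

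Interferons are secreted signalling proteins, and those of type I are made by cells that detect foreign or misplaced nucleic acid. Type I interferon signals through JAK kinases to a complex that holds STAT2 and IRF9 and binds the interferon-stimulated response element, and type II interferon (interferon gamma) acts through the gamma-activated site. The induced genes include sensors of viral RNA, enzymes that block viral RNA and protein synthesis, the ubiquitin-like protein ISG15 and GTPases that attack vacuoles holding pathogens. Many are also expressed at a low level in uninfected tissue.

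The genotype field of the labels stated the opposite genotype to the title in 17 of 17 samples. Groups were taken from the titles, which give the sizes stated in the design, and every direction below would turn round if the field were right. By library name, the db/m libraries were numbered 1 to 8 in a run, and the db/db libraries carried higher numbers with gaps between them. Any batch running with the number therefore cannot be told apart from the genotype. Gene counts per library ran from 3256427 to 7627747 in db/db and from 3664332 to 7027463 in db/m kidneys, with db/db replicate 9 the deepest. Levels are given as CPM, counts scaled to a common library total, on which 3 counts are worth 0.380 to 0.929 CPM in a single library. On the first principal component, which held 32.8% of the variance, db/db replicate 8 lay at 79.2, and the lowest library, a db/m one, at -44.3. All 10 markers of kidney epithelium were detected.

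Promoters of 28 of the 35 genes were matched in RefSeq (build GRCm38.p6), in 34 windows that run from 250 bases before to 50 bases after a gene's start. Zbp1, Usp18, Parp9, Parp14, Rtp4, Ifi27 and Iigp1 had no entry. A core of the interferon-stimulated response element (GAAA, any 2 bases, then GAAA) stood on either strand in 14 of the 34 windows (41.2%), against 3.44% of all 32851 windows of the same length. A core of the gamma-activated site (TTCNNNGAA, which reads the same on both strands) stood in 10 of the 34 windows (29.4%), against 8.3% of all windows. A match is a description of these letters and not a measured binding site. Windows are shown for 4 of the 5 genes that differed between genotypes at the threshold used below and for Isg15, which had the most matches to the response element among the windows shown. Capitals mark the matches to either motif. No match to one motif overlaps a match to the other in these windows, while matches to the same motif may run together into 1 stretch of capitals.

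The first has 1 match to the response element and 2 to the gamma-activated site, and belongs to Gbp7, a guanylate-binding GTPase, at chr3:142530086-142530385 on the plus strand.
Gbp7: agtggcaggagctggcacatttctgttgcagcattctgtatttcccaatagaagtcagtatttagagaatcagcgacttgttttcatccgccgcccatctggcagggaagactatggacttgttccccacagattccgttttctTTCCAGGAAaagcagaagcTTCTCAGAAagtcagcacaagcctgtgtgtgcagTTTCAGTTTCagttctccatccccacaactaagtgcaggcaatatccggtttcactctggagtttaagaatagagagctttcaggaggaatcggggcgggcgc
The second has 1 match to each motif and belongs to Igtp, an immunity-related GTPase, at chr11:58199306-58199605 on the plus strand.
Igtp: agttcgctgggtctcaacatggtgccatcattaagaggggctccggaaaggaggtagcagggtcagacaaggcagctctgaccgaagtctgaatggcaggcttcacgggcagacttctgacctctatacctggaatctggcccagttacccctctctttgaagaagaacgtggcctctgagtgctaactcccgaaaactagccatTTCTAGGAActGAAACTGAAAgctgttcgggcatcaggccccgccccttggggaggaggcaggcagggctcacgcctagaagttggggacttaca
The window of Xaf1, which encodes a binding partner of the apoptosis inhibitor XIAP, had no match and lies at chr11:72301379-72301678 on the plus strand.
Xaf1: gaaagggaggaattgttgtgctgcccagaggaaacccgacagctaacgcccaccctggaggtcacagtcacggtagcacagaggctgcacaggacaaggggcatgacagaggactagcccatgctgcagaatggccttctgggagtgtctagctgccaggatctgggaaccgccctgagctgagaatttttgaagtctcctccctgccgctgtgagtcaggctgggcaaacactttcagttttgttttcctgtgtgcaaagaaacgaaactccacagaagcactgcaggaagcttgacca
Likewise without a match was the window of Oasl2, a relative of the oligoadenylate synthetases, at chr5:114896684-114896983 on the plus strand.
Oasl2: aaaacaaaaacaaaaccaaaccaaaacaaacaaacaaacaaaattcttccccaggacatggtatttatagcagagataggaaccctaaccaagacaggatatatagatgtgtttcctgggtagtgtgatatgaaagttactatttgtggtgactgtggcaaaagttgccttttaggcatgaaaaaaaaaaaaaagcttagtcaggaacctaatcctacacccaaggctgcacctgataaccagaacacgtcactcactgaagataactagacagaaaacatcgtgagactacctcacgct
The window of Isg15, at chr4:156200769-156201068 on the minus strand, held 3 overlapping matches to the response element.
Isg15: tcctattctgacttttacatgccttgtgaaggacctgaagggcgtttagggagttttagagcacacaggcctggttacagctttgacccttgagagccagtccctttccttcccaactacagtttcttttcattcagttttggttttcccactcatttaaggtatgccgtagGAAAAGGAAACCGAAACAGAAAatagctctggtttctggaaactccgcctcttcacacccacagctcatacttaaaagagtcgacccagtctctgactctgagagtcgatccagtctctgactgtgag

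Interferon response genes that differed were lower in db/db than in db/m kidneys, and 3 of the 5 encode GTPases. Of the 31 tested genes, 5 fell in db/db (Iigp1, Gbp7, Xaf1, Oasl2 and Igtp) and 0 rose, at an adjusted p under 0.05 by the quasi-likelihood F-test of edgeR, adjusted after Benjamini and Hochberg over all 12131 genes. That is 16.1% of the tested list lower, where 3.49% of all tested genes were lower and 3.91% higher. The log2 fold change (db/db minus db/m) was below 0 in 28 of the 31 genes, against 49.5% of all tested genes, and its median was -0.42, against 0.0033 over all tested genes. At an unadjusted p under 0.05, 15 of the 31 were lower and 0 higher, against 9.52% and 11.6% of all tested genes. In whole tissue, fewer cells of a type and less RNA per cell cannot be told apart.

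The count of 5 moved with single libraries. It was 3 (Xaf1, Gbp7 and Iigp1) when any 1 of db/db replicates 2, 3, 6 and 7 or db/m replicates 1, 3 and 6 was left out, and 6 when db/db replicate 1 or 4 was left out. The number lower among all tested genes moved as well. It was 342 to 382 in the fits with a count of 3, against 423 in the main fit. Without db/db replicate 1 this number was 571, and without db/db replicate 4 it was 393. Without db/db replicate 9 the count was again 5, with Ifit3 called and Igtp (adjusted p = 0.0636, edgeR) not, against 2.93% of all tested genes lower and 3.16% higher. The median log2 fold change was then -0.47, against 0.0049 over all tested genes. Again 28 of 31 were below 0, against 49.3% of all tested genes. Without both db/db replicates 8 and 9 the count was 4, with Igtp not called, against 394 of all 12162 tested genes lower.

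**Figure D1:**
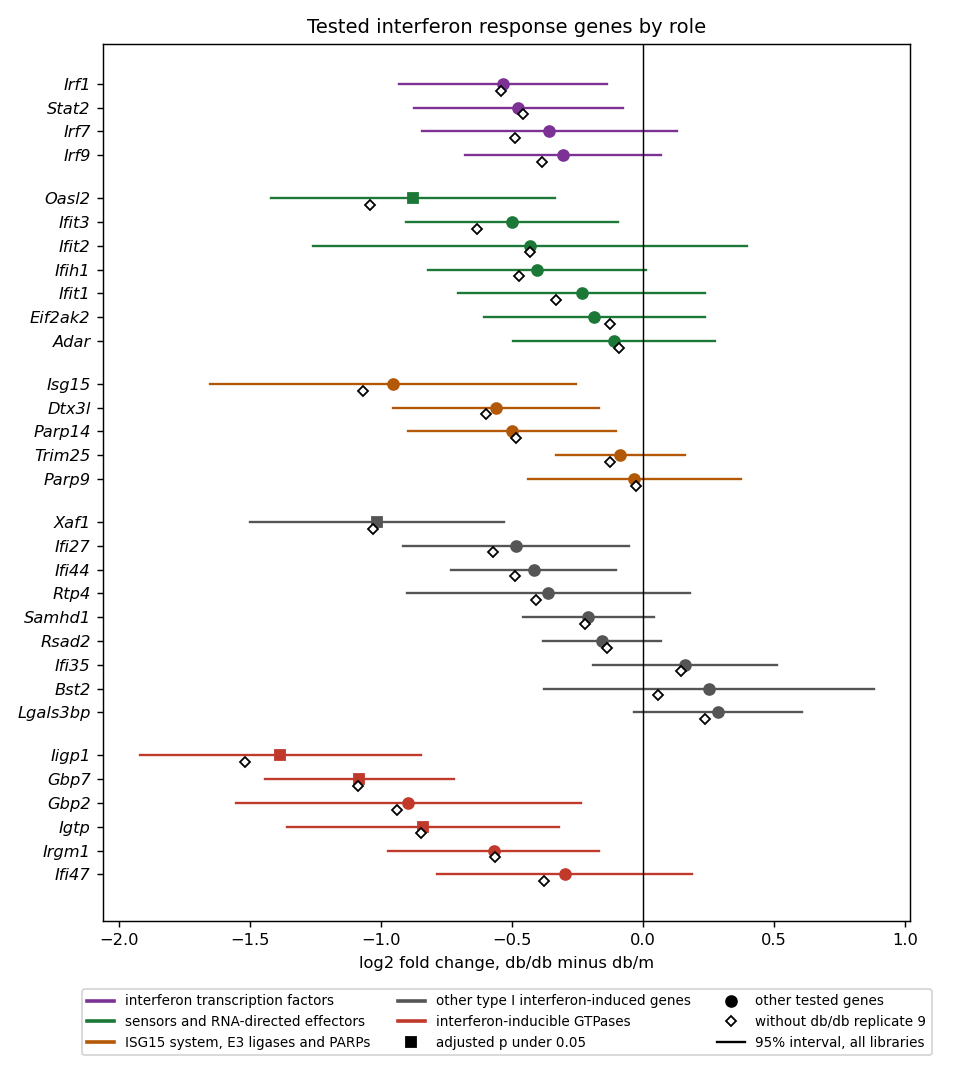
Log2 fold change (db/db minus db/m) of the 31 tested interferon response genes, ordered by role, with 95% confidence intervals from edgeR. Squares mark the 5 genes with an adjusted p under 0.05, diamonds show the value without db/db replicate 9, and 28 of the 31 values lie below 0.

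The interferon-inducible GTPases comprise the guanylate-binding proteins and the immunity-related GTPases, which gather on the membranes of vacuoles that hold bacteria or parasites. Of the 6 tested, 3 fell and 0 rose, against 3.49% and 3.91% of all tested genes. All 6 log2 fold changes were below 0, against 49.5% of all tested genes, and their median was -0.87. Without db/db replicate 9, 2 of the 6 fell, against 2.93% of all tested genes. Iigp1 encodes an effector GTPase of the immunity-related family. Its lowest, median and highest levels were 2.61, 5.58 and 11.4 CPM in db/db kidneys, against 12.04, 15.8 and 25.4 CPM in db/m kidneys. Every db/db library lay below every db/m library, which held for 1.05% of all tested genes and for no other tested member. The reverse, every db/db library above every db/m library, held for 0 members and for 0.734% of all tested genes. The mean was 6.37 ± 3.20 CPM in db/db and 17.02 ± 4.57 CPM in db/m kidneys (SD, n = 9 and 8), a log2 fold change of -1.38 (SE 0.26, edgeR adjusted p = 0.00129). The exact two-sided permutation test over all 24310 arrangements of the group labels gave p = 0.000206 (0.00843 after Benjamini-Hochberg adjustment over the tested genes).

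Gbp7, whose promoter is printed above, had levels of 7.12, 9.16 and 13.9 CPM (lowest, median and highest) in db/db kidneys and 11.4, 20.9 and 27.7 CPM in db/m kidneys. The groups overlapped through db/db replicates 3 and 8, at 13.1 and 13.9 CPM, which lay above the lowest db/m library. Its log2 fold change was -1.08 (SE 0.17, edgeR adjusted p = 0.000281), and the exact permutation p was 0.000206. A pseudogene, Gm43802, overlaps Gbp7 in the annotation. Igtp, which helps to steer the effector GTPases to their target membranes, had 3.48, 7.60 and 18.1 CPM in db/db kidneys, against 7.79, 14.3 and 17.1 CPM in db/m kidneys. Replicate 4 held the db/db maximum, above every db/m library, and the other 8 db/db libraries reached at most 8.70 CPM. The log2 fold change of Igtp was -0.84 (SE 0.25, edgeR adjusted p = 0.0424), and its exact permutation p of 0.0044 did not pass after adjustment (0.0572). It was called when db/db replicate 1, 4 or 8 or db/m replicate 2 or 8 was left out, and in none of the other 12 fits without 1 library. Without db/db replicate 4 its log2 fold change was -1.09 (adjusted p = 0.00139). Igtp shares bases with Irgm2 on the same strand, so their reads may be hard to separate.

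Irgm1, a regulator of the same GTPase family, had 3.48, 5.45 and 8.93 CPM in db/db and 6.14, 8.23 and 10.2 CPM in db/m kidneys. The ranges overlapped, and the log2 fold change of -0.57 (SE 0.19) did not pass (edgeR adjusted p = 0.0791), but did without db/db replicate 1 (-0.68, adjusted p = 0.0227). Gbp2 had 0.21, 2.76 and 3.96 CPM in db/db and 2.61, 4.40 and 7.04 CPM in db/m kidneys, also overlapping. With a log2 fold change of -0.90 (SE 0.32) it did not pass in edgeR (adjusted p = 0.0952) and did in DESeq2 (adjusted p = 0.0428). DESeq2 called 6 members lower and 0 higher, against 4.4% and 5.12% of all tested genes. Ifi47, another immunity-related GTPase, had a log2 fold change of -0.30 (edgeR adjusted p = 0.505). Gbp3 held 62 counts over the db/db and 131 over the db/m libraries and did not pass the count filter. Fitted together with all 25107 genes that had a count, its log2 fold change was -1.09 (SE 0.35, edgeR adjusted p = 0.0914). Gbp2, Gbp3 and Gbp7 are close copies near each other on chromosome 3, so reads may be shared among them.

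**Figure D2:**
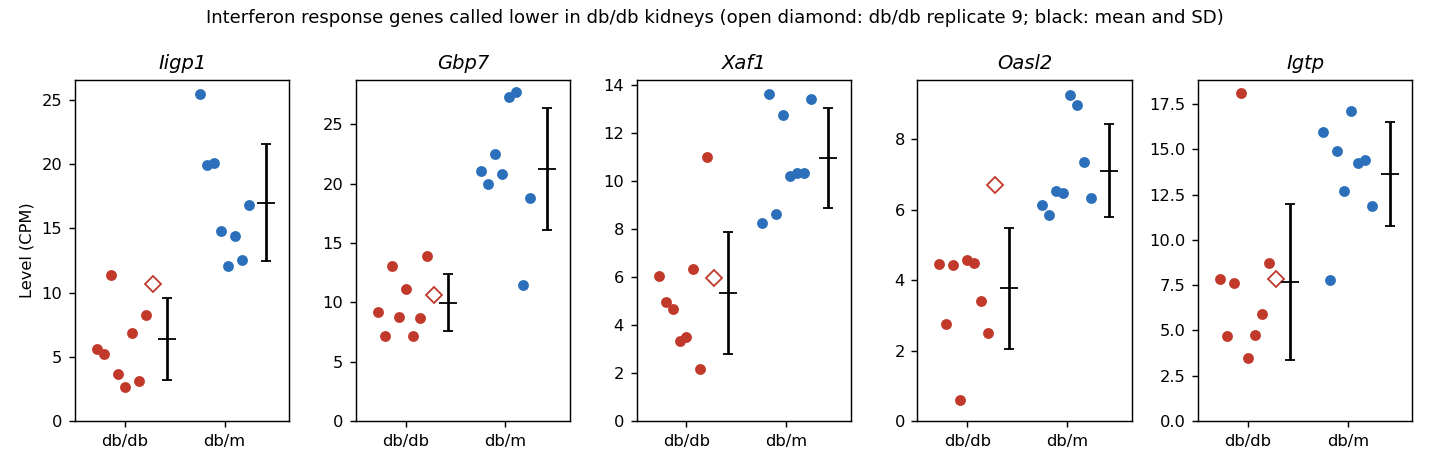
CPM in each library for Iigp1, Gbp7, Xaf1, Oasl2 and Igtp, with db/db libraries left and db/m libraries right in each panel, mean and SD as bars, and db/db replicate 9 as an open diamond. The db/db points of Iigp1 all lie below the db/m points, while in each other panel at least 1 db/db point lies above the lowest db/m point.

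Among the sensors and RNA-directed effectors, 1 of 7 tested genes fell and 0 rose, against 3.49% and 3.91% of all tested genes. All 7 log2 fold changes were below 0 (median -0.40), against 49.5% of all tested genes. Without db/db replicate 9, 2 of the 7 fell, against 2.93% of all tested genes. Oasl2 had 0.60, 4.43 and 6.72 CPM in db/db kidneys, against 5.84, 6.50 and 9.26 CPM in db/m kidneys. The db/db maximum was replicate 9, the only db/db library above the lowest db/m library. The log2 fold change was -0.88 (SE 0.26, edgeR adjusted p = 0.0427), and the exact permutation p was 0.000699 (0.0176 adjusted). Oasl2 remained called in 3 of the 17 fits without 1 library, those without db/db replicate 1, 4 or 9.

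Ifit3, a partner of the RNA-binding IFIT proteins, had 7.37, 11.3 and 18.9 CPM in db/db kidneys, with replicate 9 the highest, and 7.63, 17.3 and 21.0 CPM in db/m kidneys. The ranges overlapped almost fully, through db/db replicate 9 and db/m replicate 4, which held the lowest db/m level. Of the other libraries, the highest in db/db was replicate 3 at 13.7 CPM and the lowest in db/m was replicate 2 at 14.6 CPM. Its log2 fold change was -0.50 (SE 0.20, edgeR adjusted p = 0.133), and -0.63 (SE 0.18, adjusted p = 0.0460) without db/db replicate 9. It also passed without db/m replicate 4 (adjusted p = 0.0470). Ifit1, which binds viral RNA with an incomplete cap, and Ifit2 had log2 fold changes of -0.23 and -0.43 and did not pass. Nor did Ifih1 (-0.40), which encodes the RNA sensor MDA5, Eif2ak2 (-0.19), which encodes the kinase PKR, or Adar (-0.11), which edits double-stranded RNA. Zbp1, a sensor of left-handed nucleic acid, held 9 counts over the db/db and 18 over the db/m libraries. Oas1a, an oligoadenylate synthetase, held 4 and 5 counts over the db/db and the db/m libraries, and neither gene was tested.

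Among the other type I interferon-induced genes, 1 of 9 fell and 0 rose, against 3.49% and 3.91% of all tested genes. Of the 9, 6 were below 0, against 49.5% of all tested genes, and the median was -0.21. The gene that fell was Xaf1. Its lowest, median and highest levels were 2.17, 4.97 and 10.98 CPM in db/db kidneys, against 8.25, 10.3 and 13.6 CPM in db/m kidneys. Replicate 8 was the only db/db library inside the db/m range. The log2 fold change of Xaf1 was -1.02 (SE 0.23, edgeR adjusted p = 0.00816), and the exact permutation p was 0.000535 (0.0151 adjusted). Iigp1, Gbp7 and Xaf1 were each called in 17 of 17 fits without 1 library.

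The genes with a log2 fold change above 0 all stood in this role, and did not pass the test. They were Lgals3bp (0.29, edgeR adjusted p = 0.298), which encodes a secreted galectin-binding glycoprotein, Bst2 (0.25), the membrane tether of budding virus, and Ifi35 (0.16), a partner of Nmi. For Lgals3bp, levels ran from 31.7 to 83.0 CPM in db/db and from 33.8 to 50.6 CPM in db/m kidneys. Ifi44 (-0.42), the interferon-inducible Ifi27 (-0.48), Rtp4 (-0.36), the deoxynucleotide hydrolase Samhd1 (-0.21) and Rsad2 (-0.16), which encodes the antiviral enzyme viperin, were below 0 without passing. Their edgeR adjusted p-values ran from 0.106 for Ifi44 to 0.461 for Rtp4.

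In the ISG15 system, E3 ligases and PARPs, 0 of 5 tested genes passed in either direction. All 5 were below 0 (median -0.50), against 49.5% of all tested genes. Isg15 itself had 0.84, 1.86 and 2.79 CPM in db/db kidneys, against 0.93, 3.37 and 7.63 CPM in db/m kidneys. The db/m replicates 3, 5 and 7 lay within the db/db range, and the other 5 db/m libraries above it. Isg15 had a log2 fold change of -0.95 (SE 0.34, edgeR adjusted p = 0.0932), and of -1.08 (adjusted p = 0.0356) without db/m replicate 5. Dtx3l, an E3 ubiquitin ligase that works with PARP9, had 3.43, 5.79 and 8.02 CPM in db/db and 6.25, 8.62 and 11.2 CPM in db/m kidneys. The groups overlapped, and its log2 fold change was -0.56 (SE 0.19, edgeR adjusted p = 0.0779).

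Parp14, an ADP-ribosyl transferase, had a log2 fold change of -0.50 (edgeR adjusted p = 0.125), and of -0.62 without db/db replicate 4 or without replicate 8 (adjusted p = 0.0364 and 0.0319). Those replicates, at 23.8 and 22.8 CPM, lay above all 8 db/m libraries, and the other 7 db/db libraries lay between 6.92 and 14.1 CPM, below all of them. Parp9 had -0.03 and Trim25, an E3 ligase for the RNA sensor RIG-I, -0.09. The log2 fold change of Parp9 ran from -0.17 to 0.05 over the fits without 1 library, so its sign was not settled. Parp9 and Dtx3l overlap on opposite strands, and the strand setting of the counting is not given. Usp18, which removes ISG15 from its targets, held 52 counts over the db/db and 68 over the db/m libraries and was not tested.

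Among the transcription factors, 0 of 4 passed and all 4 were below 0 (median -0.42), against 49.5% of all tested genes below 0. Stat2 and Irf9, partners in the type I interferon complex, had log2 fold changes of -0.48 and -0.31. Irf1, an interferon-induced factor that activates further genes, had -0.53 (SE 0.19, edgeR adjusted p = 0.1002). Irf7, which drives transcription of type I interferon, had -0.36. Leaving out a single library brought Irf1 (without db/m replicate 5, adjusted p = 0.0484) and Stat2 (without db/db replicate 5, adjusted p = 0.0445) past the threshold.

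Across libraries, the mean deviation of the 31 genes from their db/m means, in log2 CPM, ran from -0.74 to -0.12 in db/db kidneys, with a median of -0.47, and from -0.07 to 0.07 in db/m kidneys. The groups did not overlap. Over all tested genes the same mean ran from -0.13 to 0.04 in db/db and from -0.09 to 0.10 in db/m kidneys. The db/db library nearest to the db/m range was replicate 9 and the farthest was replicate 7. For the GTPases alone, the mean ran from -1.39 to -0.52 in db/db and from -0.28 to 0.31 in db/m kidneys, again without overlap. In each of the other 4 roles the groups overlapped, with the highest db/db library between -0.09 and 0.11 and the lowest db/m library between -0.29 and -0.09. Replicate 9 was the highest db/db library in 9 of the 31 genes, against 6.16% of all tested genes. Replicate 8 was also the highest in 9 of the 31, against 23.8% of all tested genes.

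**Figure D3:**
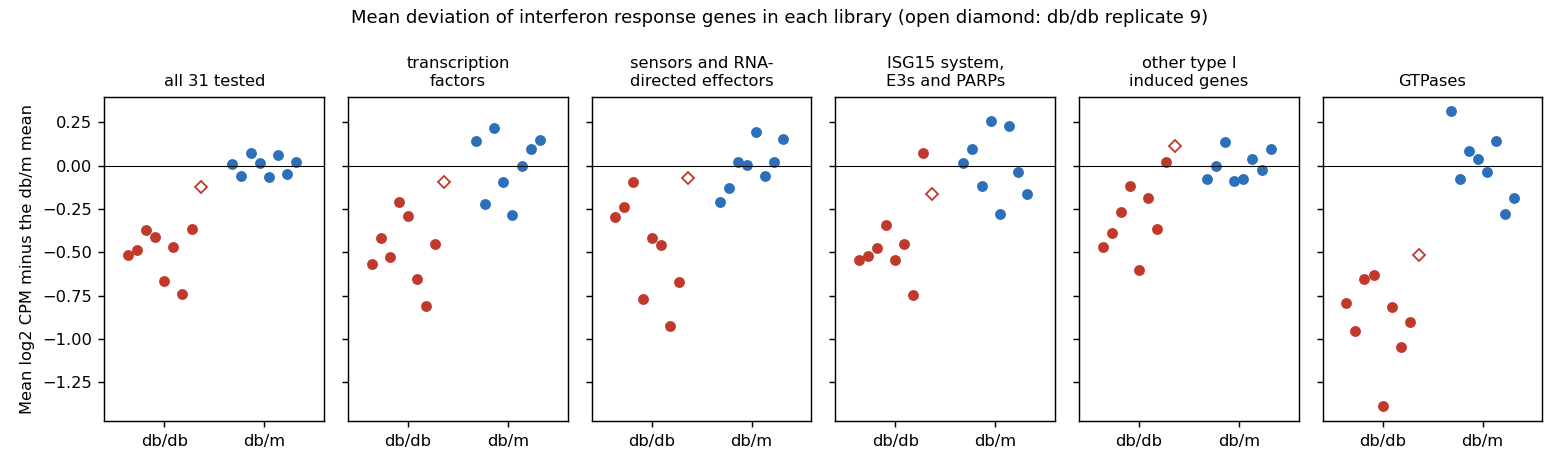
Mean deviation from the db/m mean, in log2 CPM, of all 31 tested genes and of each role, by library, with db/db libraries left of db/m libraries and db/db replicate 9 as an open diamond. Over all 31 genes the db/db libraries lie between -0.74 and -0.12 and the db/m libraries between -0.07 and 0.07.

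**Figure D4:**
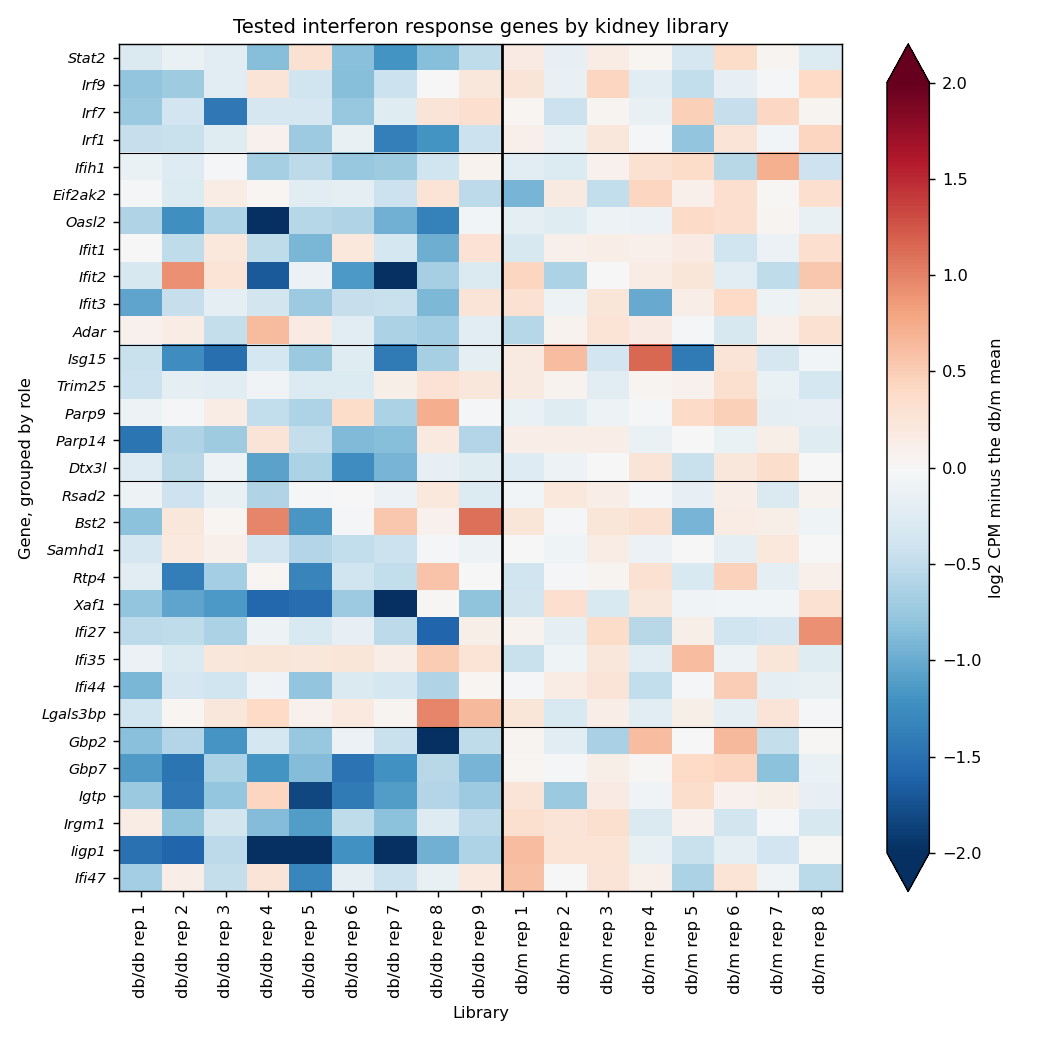
Log2 CPM minus the db/m mean for the 31 tested genes (rows, by role) in 17 libraries (columns, db/db left). The GTPase rows average -1.39 to -0.52 in the db/db libraries, and single values such as Igtp in db/db replicate 4 run the other way.

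Called genes stood on both sides of the split by promoter motif. The 12 tested genes with a match to the response element had a median log2 fold change of -0.49 and included Gbp7 and Igtp, and the 14 with a promoter entry and no match had a median of -0.33 and included Xaf1 and Oasl2. For the gamma-activated site, the 9 with a match had a median of -0.21 and the 17 without had -0.42. These medians are descriptions, and the differences between them were not tested.

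The rest of the interferon pathway was described with 109 further genes, of which 57 were tested. In db/db kidneys 9 of the 57 fell and 0 rose, 38 were below 0 and the median log2 fold change was -0.12. Of all tested genes, 3.49% were lower, 3.91% higher and 49.5% below 0, with a median of 0.0033. The interferon genes themselves had almost no counts. Over the 11 ligand genes, 1 count was found in all db/db and 5 in all db/m libraries, and 9 of the 11 had no count, so no difference was detectable at this depth. Of 8 tested receptors and kinases, 0 passed, with a median of -0.08. The kinase Jak1 had 0.03, and the type I receptor chain Ifnar2 -0.25.

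Among the upstream sensors, adaptors and kinases, 1 of 10 tested genes fell, against 3.49% of all tested genes. It was Irf5, a transcription factor of leukocytes that acts below Toll-like receptors, with 1.62 ± 1.21 CPM in db/db and 4.28 ± 1.62 CPM in db/m kidneys (SD, n = 9 and 8). Its log2 fold change was -1.37 (SE 0.35, edgeR adjusted p = 0.0168). Irf5 held only 66 counts over the db/db and 157 over the db/m libraries, and passed the count filter mainly through db/m. Of the 17 fits without 1 library, it passed that filter in 16 and was called in those 16. The median of the 10 was 0.10, with 0.17 for the adaptor Mavs and -0.06 for Irf3. The median of the 9 tested regulators was -0.36. Irf8, a factor of macrophages and dendritic cells, had -0.58 (SE 0.17, edgeR adjusted p = 0.0421) and was not called without db/db replicate 9 (adjusted p = 0.0671). It remained called in 5 of the 17 fits without 1 library, those without db/db replicate 1, 4 or 6 or db/m replicate 3 or 7. Stat3 and Irf2 had 0.35 and -0.36 and did not pass.

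Of 30 other interferon-induced genes that were tested, 6 fell and 0 rose, against 3.49% and 3.91% of all tested genes, and the median log2 fold change was -0.19. They were the helicase gene Ddx60 (-1.73), Slfn2 of the Schlafen family (-1.37), the nucleic acid sensor relatives Ifi203 (-1.26) and Mndal (-1.20), Trim30a (-0.996) and the nuclear body gene Sp100 (-0.65). Their edgeR adjusted p-values ran from 5.88e-05 for Mndal to 0.0066 for Sp100, and all 6 remained called in 17 of 17 fits without 1 library. Ddx60 held only 49 counts over the db/db and 153 over the db/m libraries, and Slfn2 held 65 and 155. Both passed the count filter mainly through the db/m libraries. Their lowest db/db levels, 0.65 CPM for Ddx60 and 0.53 CPM for Slfn2, were worth about 3 counts or fewer, so the size of these falls is uncertain. Ifi203 and Mndal are similar neighbours, so reads may be shared between them. Ly6e (-0.06) and Shisa5 (0.09), the tested genes of this list with the highest mean CPM, did not pass. Without db/db replicate 9, Herc6 (-0.74, adjusted p = 0.0389) and Isg20 (-1.04, adjusted p = 0.0216) also passed.

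**Figure D5:**
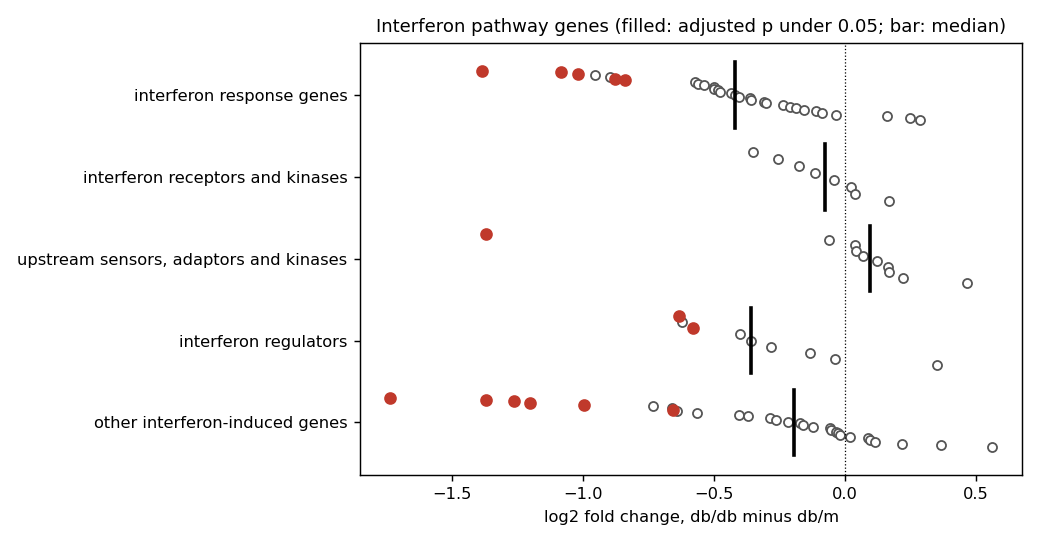
Log2 fold change (db/db minus db/m) of each tested gene of the interferon response and of the other interferon pathway lists, 1 point per gene, filled at an adjusted p under 0.05, with a bar at each list's median. The medians are -0.42 for the interferon response genes and -0.08 for the receptors and kinases, and all filled points lie below 0.

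Markers of other cell types were summed in each library beside these differences, and their part in them was not tested. The summed level of the leukocyte list (5 genes, of which 1 of 4 tested, Ptprc, fell) ran from 17.7 to 38.5 CPM in db/db and from 30.9 to 53.8 CPM in db/m kidneys. The B and plasma cell list ran from 6.50 to 46.0 CPM in db/db and from 32.4 to 415 CPM in db/m kidneys. Igkc and Igha were lower, and Cd79a had no count. The highest of this list were db/db replicate 8 and db/m replicate 8, and the next were 25.9 CPM in db/db and 147 CPM in db/m kidneys. The macrophage list, with 0 of 7 tested genes called, ran from 84.9 to 252 CPM in db/db and from 141 to 290 CPM in db/m kidneys. T cell markers summed to 1.56 to 4.83 CPM in db/db and 1.85 to 5.94 CPM in db/m kidneys, and none was tested. NK cell markers summed to 0 to 1.27 CPM in db/db and 0.544 to 3.90 CPM in db/m kidneys, with no count of Gzmb and none tested.

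Neutrophil markers, none of them tested, ran from 0.552 to 8.90 CPM in db/db and from 0.232 to 7.94 CPM in db/m kidneys, with no count of Ly6g or Mpo. The plasmacytoid dendritic cell list ran from 12.9 to 43.5 CPM in db/db and from 4.79 to 21.5 CPM in db/m kidneys. Only 1 of its 4 genes was tested and 0 were called, so no difference of these cells is shown. Endothelial markers, 0 of 8 tested called, summed to 413 to 567 CPM in db/db and 430 to 586 CPM in db/m kidneys. The kidney epithelium list ran from 9952 to 15529 CPM in db/db and from 24404 to 38161 CPM in db/m kidneys, with Kap lower, and Aqp2 and Nphs1 among those higher. Adipocyte markers ran from 32.5 to 605 CPM in db/db and from 58.7 to 617 CPM in db/m kidneys. The highest were db/db replicate 9 and db/m replicate 8, and the next were 96.8 CPM in db/db and 252 CPM in db/m kidneys. Adrenal cortex markers, none of them tested, summed to 0.828 to 3.17 CPM in db/db and 0.749 to 3.47 CPM in db/m kidneys, with no count of Cyp21a1.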

How the data were processed

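Polyadenylated kidney RNA was made into 3′ libraries (QuantSeq, forward), per the labels' protocols, which also speak of cells in plates. Raw counts per gene were deposited, and the submitters' processing notes name STAR 2.7.3a, HTSeq 2.16.2 and the human build GRCh38. The gene identifiers are those of mouse in Ensembl. Which mouse build and strand setting were used, and whether duplicates were collapsed, is not given in the sources used here. Symbols were matched for 55141 identifiers. Reads outside genes (19.3%) and ambiguous reads (0.533%) entered neither library sizes nor tests.

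The test was that of edgeR 4.0.16 (quasi-likelihood F-test, TMM, filterByExpr with a minimum count of 10) in R 4.3.3, db/db against db/m, with no covariate and Benjamini-Hochberg adjustment over all 12131 genes. Genes under 0.05 were called. CPM used TMM-scaled library sizes, and log2 CPM a prior count of 2. Exact two-sided permutation tests of mean log2 CPM used all 24310 label arrangements. Intervals are at the 95% level. Limits of 3 counts cover counting error only, since duplicate reads may remain. Libraries of a group differed beyond counting noise, with a chi-square of at least 3.57 per degree of freedom in each pair. Scripts were tested on simulated data.

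Alternatives were DESeq2 1.42.0, RLE scaling, other filters, no mitochondrial genes, a robust fit, a replicate block and leaving out libraries. Leaving out db/db replicates 8 and 9 together was added after seeing the data. The members, roles and lists were chosen with earlier results of these data known. All 35 members were named. Some genes are not reported here. Of the other pathway genes, those called and the 2 with the highest mean CPM in each list were named. Ifitm2, Herc6 and Isg20 were named after their values were seen, as were genes with an outlying library. Per-library ranges were given for members called with or without db/db replicate 9 and for the 4 with the next smallest p, and chosen after seeing values for Parp14 and Lgals3bp.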

Additional observations from a re-analysis of the deposited data

Results flagged for a closer look

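Of 94 groups of libraries examined for a library far from the rest, 9 had one, and chance gives about 1 in 20 groups. Among the db/db kidneys, Xaf1 was high in replicate 8 (10.98 CPM, next 6.33 CPM) and Igtp in replicate 4 (18.1 CPM, next 8.70 CPM). Irf5 was high in db/db replicate 1 (4.69 CPM, next 1.93 CPM), and the RNA exonuclease gene Isg20 in db/db replicate 9 (12.04 CPM, next 5.58 CPM). Among the db/m kidneys, Irf8 was high in replicate 6 (39.4 CPM, next 27.0 CPM), Herc6 in replicate 1 (11.2 CPM, next 7.58 CPM) and Ddx60 in replicate 7 (7.35 CPM, next 4.64 CPM). Oas1a was high in db/m replicate 3 at 0.523 CPM (next 0.243 CPM), which there is a level of 2 counts. Bst2 was low in db/m replicate 5 (1.62 CPM, next 3.26 CPM).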

How the results depend on the processing

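Over the 17 fits that each left out 1 library, the count of interferon response genes lower in db/db ran from 3 to 6 and the count higher was 0 in each. Among all tested genes, 318 to 571 were lower and 319 to 666 higher over the same fits. The count of other pathway genes higher in db/db ran from 0 to 1 over these fits, reaching 1 without db/db replicate 1, and was 1 with DESeq2 (Ifitm2, adjusted p = 0.0472). Interferon response genes lower numbered 6 with DESeq2 (Gbp2 added), 6 with a filter of 1 CPM in 8 libraries (Gbp3 added), 4 without a filter (Oasl2 lost) and 4 without db/db replicates 8 and 9 (Igtp lost). Of all tested genes, 439 of 13956 were lower with the CPM filter and 417 of 25107 without a filter. RLE scaling, leaving out mitochondrial genes and the robust fit gave 5. Gbp3 passed the count filter without db/m replicate 2 or 7 and was called in both fits. Pairing by replicate number was not visible in the values. Same-numbered libraries correlated from -0.45 to 0.21 in their deviations, with 2 of 8 pairs over 0.1, and 0 libraries matched their own number best. These correlations cannot tell whether the samples were paired in the design. With the replicate block, which also leaves out db/db replicate 9, 4 interferon response genes were lower, against 231 of all 12021 tested genes. Igtp was not called there (adjusted p = 0.0739), as without that replicate alone (0.0636). Bst2 then changed sign (-0.0052, adjusted p = 0.994). Parp9 changed sign in 5 fits without 1 library, its log2 fold change running from -0.167 to 0.0518. Over single genes and alternatives, 96 values of called genes stayed called and 29 did not, and of uncalled genes 9 passed, 635 did not and 6 changed sign. The causes were not tested. Zbp1, Oas1a, Usp18 and Gbp3 were under the count filter used for the report, and whether Gbp3 was tested depended on that filter.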
